A study of Mus musculus with 6 samples.

Results

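Aminoacyl-tRNA synthetases are the enzymes that load each transfer RNA with its amino acid, the step that ties the genetic code to the protein made. Cells keep a cytosolic set, which serves the bulk of protein synthesis, and a mitochondrial set, which is encoded in the nucleus and serves the few proteins made inside mitochondria. In animals several cytosolic enzymes are held in a multi-synthetase complex by the scaffold proteins AIMP1, AIMP2 and EEF1E1. In growing lymphocytes these genes are part of the growth programme driven by MYC, and many of the cytosolic ones are also known targets of ATF4, the transcription factor of the response to amino acid shortage. The set described here was chosen by name and holds 39 genes out of 21307 rows of the deposited expression table: 20 cytosolic synthetase genes, 16 mitochondrial ones and 3 scaffold genes. All 39 were found, and all 39 passed the filter on low values. Aars shares its row with the neighbouring gene Exosc6, so its values belong to both.

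The study sequenced messenger RNA of B cells from the bone marrow of pre-tumoral mice 6 to 8 weeks old on a C57BL/6 x 129S1/SvlmJ background, grown with interleukin 7. All 6 libraries, controls included, carry the Eµ-myc transgene, which drives MYC from an immunoglobulin heavy chain enhancer, together with Prmt5F/F alleles that Cre can delete and the CreER recombinase. The ethanol group (3 libraries) received ethanol for 24 h and the 4-OHT group (3 libraries) received 50 nM 4-hydroxytamoxifen for as long, which activates CreER, and both were then kept in fresh medium for 5 days. The titles call the groups WT and PT, whereas the sample characteristics and the table name ethanol and 4-OHT, as used here. The table gives 1 FPKM value per gene and condition (fragments scaled to transcript length and library size). There is therefore no replicate error, no test and no known depth, and each difference below is one of size only. A ratio is the 4-OHT value plus 1 FPKM divided by the ethanol value plus 1 FPKM, on the log2 scale, so a negative ratio is a lower value in 4-OHT, and folds are on that same scale, which understates the change of low genes.

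Prmt5, the deleted gene, had 41.6 FPKM with ethanol and 5.71 FPKM with 4-OHT, and Myc 402 and 213 FPKM. The labelled cell type was visible in both conditions: all 10 B-lineage markers were detected, with a summed level of 1819 and 901 FPKM in ethanol and 4-OHT, and 9 of the 10 were lower in 4-OHT. Markers of other bone marrow cells went the other way, with 8 of 8 compared macrophage markers, 8 of 8 neutrophil markers and 9 of 9 stromal markers higher. The summed levels were 679 and 1488 FPKM for macrophages without Lyz2, 353 and 3338 FPKM for neutrophils, and 38.9 and 610 FPKM for stroma. Lyz2 is listed at 3835 FPKM in ethanol and at 0 in 4-OHT, and with it the macrophage sums were 4514 and 1488 FPKM. Fewer cells of a type and less RNA per cell cannot be told apart in such bulk values, and the part of this shift in the synthetase values below was not tested.

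Promoter sequence is shown first for the cytosolic genes whose windows held the core of the C/EBP-ATF response element, the kind of site that ATF4 binds. RefSeq promoter windows (GRCm38.p6, 250 bases before to 50 bases after the start taken for the window) were used for 29 of the 39 genes. They covered 12 of the 20 cytosolic genes, 14 of the 16 mitochondrial ones and 7 of the 12 textbook ATF4 targets listed below. No window was used for Cars, Hars, Lars, Mars, Nars, Rars, Vars, Wars, Hars2 and Pars2, which were not searched. Hars, Lars, Nars and Hars2 lie on the same chromosome, which was left out of the member search by choice. The shares over all windows given below were computed without that exclusion. The windows were searched on both strands for the core TGATGNAA (reverse complement TTNCATCA) and for the E-box CACGTG, the site that MYC with MAX binds and that reads the same on both strands. These motifs share no bases in the windows shown. The response element core was found for 5 of the 29 genes, Aars, Gars, Iars, Tars and Yars, and in 3.97% of all 32851 windows. The E-box was found for 5 of the 29 genes, Aars, Iars, Tars, Farsb and Ears2, and in 7.15% of all windows. The 29 genes had 31 windows, so a share of genes and a share of windows are unlike units, and the difference was not tested. The start, base 251 of each window, equalled the RefSeq gene start in 15 of these 31 windows and lay elsewhere in the others. Distances given below are counted from that base. A match describes letters in a window and does not show binding.

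The 150 bases before the start are given 5′ to 3′ on the gene's strand, with the matches to both motifs in capitals. Qars, the cytosolic gene with the ratio nearest 0, was picked by that ratio and holds no match to either motif in its window. Lack of a match was not particular to it. Cytosolic genes with a searched window and neither motif ran from -0.77 for Eprs to -0.16 for Qars, and mitochondrial ones from -1.05 for Mars2 to 1.89 for Lars2.
Aars (chr8:111033692-111033841, + strand): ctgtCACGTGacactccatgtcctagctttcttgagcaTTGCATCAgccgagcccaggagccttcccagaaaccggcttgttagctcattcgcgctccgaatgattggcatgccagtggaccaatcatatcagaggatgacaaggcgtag
Gars (chr6:55037851-55038000, + strand): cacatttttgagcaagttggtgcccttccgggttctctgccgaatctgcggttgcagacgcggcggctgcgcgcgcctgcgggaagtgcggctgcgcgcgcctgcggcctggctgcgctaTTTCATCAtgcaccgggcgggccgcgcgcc
Iars (chr13:49681980-49682129, + strand): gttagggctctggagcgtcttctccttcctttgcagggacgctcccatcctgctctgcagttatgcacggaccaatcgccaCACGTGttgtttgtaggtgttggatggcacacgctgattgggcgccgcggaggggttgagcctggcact
Tars (chr15:11399659-11399808, - strand): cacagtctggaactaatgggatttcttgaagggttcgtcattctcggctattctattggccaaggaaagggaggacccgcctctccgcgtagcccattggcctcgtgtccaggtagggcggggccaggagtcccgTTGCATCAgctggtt
Qars (chr9:108507855-108508004, + strand): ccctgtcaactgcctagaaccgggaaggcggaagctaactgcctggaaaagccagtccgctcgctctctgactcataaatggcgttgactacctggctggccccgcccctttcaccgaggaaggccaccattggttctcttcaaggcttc

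In Aars the E-box began 146 bases and the response element core 112 bases before the start. The core began 30 bases before the start in Gars and 15 bases before it in Tars, and the E-box of Iars began 69 bases before it. The remaining matches in Yars, Iars, Aars and Tars lay after the start, and 30 bases around each are shown to complete the genes with a response element core. The E-box began 39 bases before the start in Farsb and 21 bases after it in Ears2, whose sequences are not shown.
Yars (chr4:129189895-129189924, + strand): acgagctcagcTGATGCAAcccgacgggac
Iars (chr13:49682126-49682155, + strand): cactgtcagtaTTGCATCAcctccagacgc
Aars (chr8:111033840-111033869, + strand): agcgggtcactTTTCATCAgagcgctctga
Tars (chr15:11399621-11399650, - strand): ccgcctgtggcCACGTGgcgcacgcgcagt

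The cytosolic synthetase genes were lower in 4-OHT without exception. All 20 had a negative ratio, 10 of them were at least 1.5-fold lower and 1 at least 2-fold lower, with a median ratio of -0.57 and a summed level of 1507 and 966 FPKM in ethanol and 4-OHT. Among all 10856 compared rows, 55.1% were lower, 12.8% were at least 1.5-fold lower and 2.58% at least 2-fold lower, with a median ratio of -0.07. Among the 2032 rows at the levels of these genes (means of 30.8 to 155 FPKM), 60.4% were lower and 15.6% at least 1.5-fold lower, with a median ratio of -0.15. The cytosolic ratios ran from -1.05 for Gars to -0.16 for Qars.

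**Figure D1:**
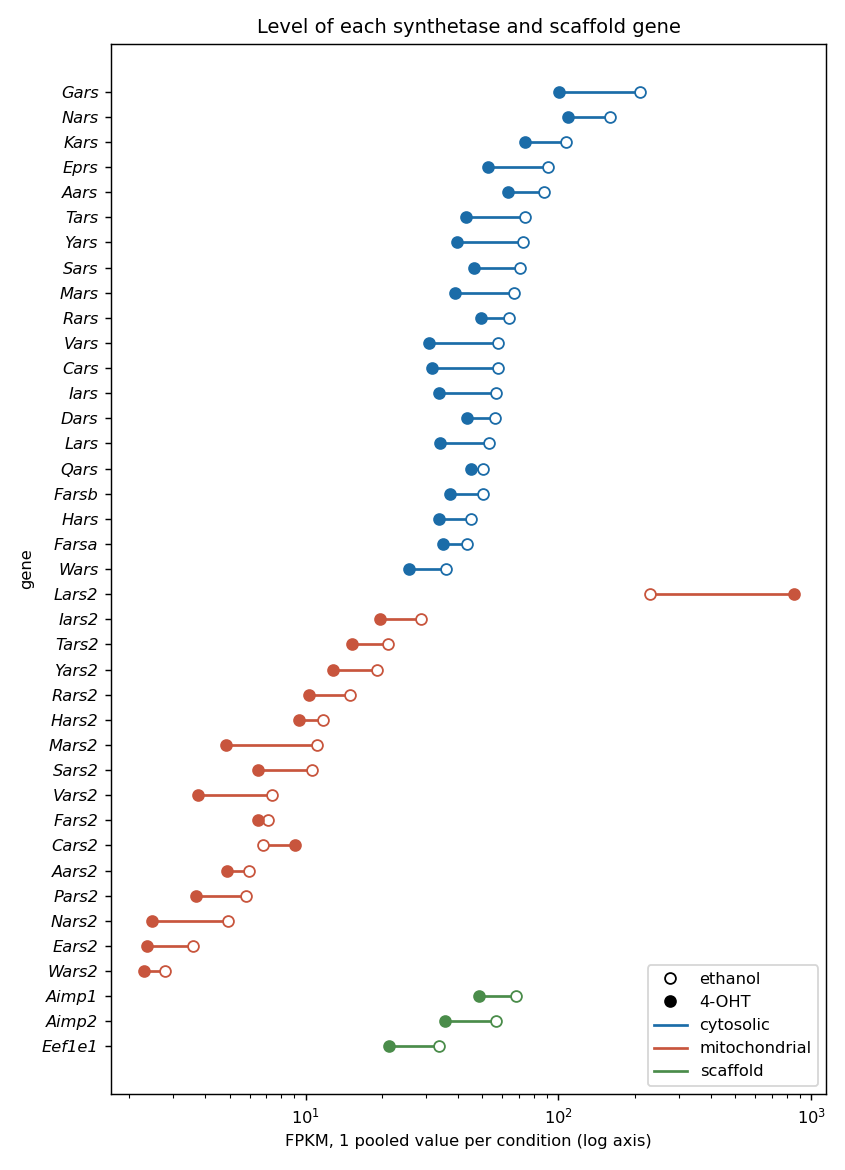
Level of each of the 39 genes in FPKM on a log axis, with an open circle for ethanol and a filled circle for 4-OHT, 1 pooled value each and no error. All 20 cytosolic and 3 scaffold genes shift to lower values, and Lars2 moves from 229 to 853 FPKM, away from the other mitochondrial genes.

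Gars, which charges glycine tRNA and whose gene supplies both the cytosol and mitochondria, was the most abundant cytosolic member in ethanol, at 209 FPKM. It stood at 101 FPKM in 4-OHT, 2.07-fold lower, and is on chromosome 6 from 54987995 to 55029498 (mm9). The only other member at least 2-fold lower was the mitochondrial gene Mars2, described below. Gars was thus the cytosolic gene with the lowest ratio as well as the highest ethanol level, and in 4-OHT it came second to Nars.

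Nars, the asparagine enzyme, stood at 159 FPKM in the ethanol cells and 109 FPKM in the 4-OHT cells, a ratio of -0.54. Kars, the lysine enzyme, whose gene also supplies both compartments, stood at 107 and 73.4 FPKM (-0.54). Gars and Nars apart, no cytosolic gene exceeded the Kars level in either condition. Kars and Gars therefore differed in ratio although each gene serves both compartments.

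The lowest cytosolic ratios after Gars were those of Vars (57.7 FPKM in ethanol and 30.6 FPKM in 4-OHT, -0.89), Yars (72.5 and 39.6 FPKM, -0.85) and Cars (57.7 and 31.6 FPKM, -0.85), which charge valine, tyrosine and cysteine tRNA. Eprs, a fused enzyme that charges both glutamate and proline tRNA, stood at 90.5 and 52.5 FPKM (-0.77). These 4 genes were each at least 1.71-fold lower in 4-OHT. Mars (66.8 and 38.8 FPKM), which supplies methionine tRNA for the start of translation as well as for elongation, was at -0.77, and Tars (73.9 and 43.2 FPKM), the threonine enzyme, was at -0.76. Iars, for isoleucine (56.4 and 33.6 FPKM), was at -0.73, Lars, for leucine (53.3 and 34.1 FPKM), at -0.63 and Sars, for serine (70.6 and 46.4 FPKM), at -0.59. With Sars, at 1.51-fold lower, the list of cytosolic genes past 1.5-fold ends, and Kars, at 1.45-fold lower, is the next below it.

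The smaller cytosolic differences were those of Aars with Exosc6 (87.9 and 63.0 FPKM, -0.48), Wars (36.0 and 25.6 FPKM, -0.47), Hars (44.9 and 33.6 FPKM, -0.41), Dars (56.0 and 43.5 FPKM, -0.36) and Rars (63.6 and 49.4 FPKM, -0.36). They charge alanine, tryptophan, histidine, aspartate and arginine tRNA. Wars, also known as a gene that interferon induces, had the lowest level of the cytosolic enzymes in both conditions. The alpha and beta subunits of the phenylalanine enzyme, Farsa (43.5 and 34.9 FPKM, -0.31) and Farsb (50.1 and 37.4 FPKM, -0.41), lay close together in level in each condition. Qars, the glutamine enzyme, was nearly level at 50.2 and 45.0 FPKM, and its ratio ranked 4702 from the lowest among the compared rows.

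**Figure D2:**
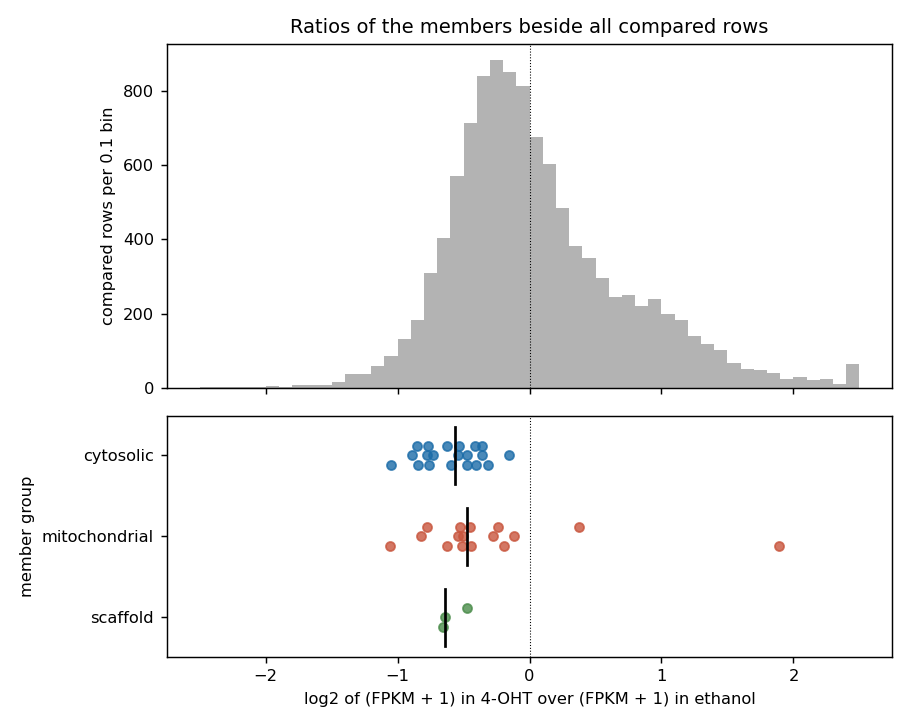
Upper panel: number of the 10856 compared rows per 0.1 bin of log2 ratio, with values beyond 2.5 on either side placed in the end bins. Lower panel: the ratio of each member by group, with a vertical bar at the group median (-0.57 cytosolic, -0.48 mitochondrial, -0.64 scaffold). Cytosolic and scaffold genes all lie left of 0, and 2 mitochondrial genes lie right of it.

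The division by known ATF4 regulation set the cytosolic genes side by side as follows. Of the 12 genes listed as textbook ATF4 targets (Aars, Cars, Eprs, Gars, Iars, Lars, Mars, Nars, Sars, Tars, Wars and Yars), 9 were at least 1.5-fold lower, with a median of -0.75. Of the 8 others (Dars, Farsa, Farsb, Hars, Kars, Qars, Rars and Vars), 1 was at least 1.5-fold lower, namely Vars, with a median of -0.38. The summed level of the 12 was 1034 and 619 FPKM in ethanol and 4-OHT, and that of the 8 was 473 and 348 FPKM. Ratios ran from -1.05 to -0.47 in the 12 and from -0.89 to -0.16 in the 8, so the ranges overlapped. The difference between these groups of genes has no test. Of the 5 genes whose windows held the response element core shown above, Gars, Yars, Tars and Iars were at least 1.66-fold lower and Aars was 1.39-fold lower. Cytosolic genes with a searched window but no core ran from -0.77 for Eprs to -0.16 for Qars, so the ranges overlapped here too.

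Genes inside and outside the multi-synthetase complex had nearly the same median. The 8 enzyme genes of the complex (Dars, Eprs, Iars, Kars, Lars, Mars, Qars and Rars) had a median ratio of -0.58 and the 12 outside it -0.57. Levels within the complex were close together, with a highest over lowest level of 2.13 in ethanol and 2.19 in 4-OHT, compared with 5.82 and 4.27 for the enzymes outside it. The complex held both Eprs, at -0.77, and Qars, at -0.16. By catalytic fold, the 9 class I genes had a median of -0.73 with 6 at least 1.5-fold lower, and the 10 class II genes a median of -0.51 with 3 at least 1.5-fold lower. Eprs, which joins an enzyme of each class, was counted in neither, and the classes overlapped, with Gars of class II lowest and Qars of class I highest.

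The scaffold genes were lower as well. Aimp1, whose product also binds tRNA and is released as a cytokine, stood at 67.7 and 48.3 FPKM in ethanol and 4-OHT (-0.48). Aimp2, the core scaffold on which the complex assembles, stood at 56.7 and 35.6 FPKM (-0.66). Eef1e1, also known as AIMP3, which links the methionine enzyme to the complex, stood at 33.8 and 21.3 FPKM (-0.64). All 3 were lower in 4-OHT and 2 were at least 1.5-fold lower, beside 55.1% and 12.8% of all compared rows. Of the transcript of Aimp2, 488 bases overlap that of Eif2ak1 (36.1 and 32.5 FPKM) in the GENCODE annotation of GRCm38, and strand use in counting was not given in the sources used here, so reads there cannot be told apart.

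The mitochondrial synthetase genes were mostly lower too and, apart from Lars2, were less abundant than their cytosolic partners. Of 16, 14 were lower in 4-OHT, 4 at least 1.5-fold and 1 at least 2-fold, with a median ratio of -0.48. At their levels without Lars2 (means of 2.53 to 24.2 FPKM), 55.9% of 6533 rows were lower and 12.4% at least 1.5-fold lower, with a median of -0.07. Without Lars2, the summed level of the 15 was 161 and 114 FPKM in ethanol and 4-OHT, and the median ratio was -0.50. The median of the cytosolic genes lay 0.09 below that of the mitochondrial genes, or 0.07 below it without Lars2.

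Mars2, the mitochondrial methionine enzyme (chromosome 1, 55294021 to 55296902, mm9), had the lowest ratio of all 39 members, at 11.1 and 4.84 FPKM in ethanol and 4-OHT, 2.08-fold lower. Vars2, for valine, stood at 7.37 and 3.74 FPKM (-0.82), and Nars2, for asparagine, at 4.91 and 2.46 FPKM (-0.77). Sars2, for serine, stood at 10.6 and 6.49 FPKM (-0.63). These are the 4 mitochondrial genes at least 1.5-fold lower, and their values below 12 FPKM rest on an unknown number of reads. Annotated transcripts of Nars2 and Vars2 also overlap those of antisense genes, C230038L03Rik over 284 bases and Gm20483 over 130 bases.

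The next ones were Yars2 (19.1 and 12.8 FPKM, -0.54), Pars2 (5.78 and 3.70 FPKM, -0.53), Iars2 (28.6 and 19.8 FPKM, -0.51) and Rars2 (15.0 and 10.3 FPKM, -0.50), the enzymes for tyrosine, proline, isoleucine and arginine. Iars2 was the most abundant mitochondrial gene after Lars2. Its annotated transcript overlaps that of Rab3gap2 (9.93 and 12.5 FPKM) over 2034 bases, so its value is uncertain. Ears2, for glutamate, was at -0.45 (3.58 and 2.35 FPKM), Tars2, for threonine, at -0.44 (21.2 and 15.3 FPKM) and Hars2, for histidine, at -0.28 (11.7 and 9.44 FPKM). The annotated transcript of Ears2 overlaps that of the more abundant Ubfd1 (19.0 and 15.5 FPKM) over 89 bases.

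The smallest mitochondrial differences were those of Aars2 (5.95 and 4.88 FPKM, -0.24), Wars2 (2.77 and 2.29 FPKM, -0.20) and Fars2 (7.09 and 6.48 FPKM, -0.11), for alanine, tryptophan and phenylalanine. Wars2 had the lowest level of all 39 members in both conditions. Hars and Hars2 are neighbours whose annotated transcripts overlap by 195 bases, so reads there cannot be told apart. The same holds for Fars2 and Lyrm4 (4.30 and 3.88 FPKM), which overlap by 115 bases.

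Cars2 and Lars2 were the only members with higher values in 4-OHT, where 44.9% of all compared rows were higher and 10.4% at least 2-fold higher. Cars2, the mitochondrial cysteine enzyme, stood at 6.78 and 9.09 FPKM in ethanol and 4-OHT, 1.30-fold higher (0.38). Cars, its cytosolic counterpart, was 1.80-fold lower. A Cars2 transcript overlaps the neighbouring gene listed in the table as Carkd (Naxd in GENCODE) over 217 bases, and Carkd was lower, at 21.3 and 16.3 FPKM.

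Lars2, the mitochondrial leucine enzyme (chromosome 9, 123276058 to 123371782, mm9), stood at 229 and 853 FPKM in ethanol and 4-OHT, 3.71-fold higher (1.89). In the authors' deposited table its log2 fold change is 1.90. The Lars2 level was 8.01 times that of the next mitochondrial gene in ethanol and 43.2 times in 4-OHT, and it made up 58.7% and 88.2% of the summed level of the 16 mitochondrial genes. Among all compared rows Lars2 ranked 171 by level in ethanol and 31 in 4-OHT, where the next synthetase gene by level was Nars, at 109 FPKM. The longest coding transcript of Lars2 in GENCODE, with 3894 bases, shares sequence with other genes within its last 989 bases, which are annotated as the 3′ untranslated region. Bases 3278 to 3349 match the antisense RNA Gm15564 at 98.6% identity over 72 bases, and bases 3233 to 3329 match AA474408, a locus of unconfirmed transcription, at 94.8% over 97 bases. No row of the table carries either of those names, so reads from these copies cannot be set apart from Lars2 reads, and the Lars2 value is uncertain as a measure of the synthetase transcript.

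The same search (at least 70 bases at 94% identity or more, loci that do not overlap) found shared stretches for 4 of the 39 members. Besides Lars2, Iars shares 1656 bases at 96.0% identity with the processed pseudogene Gm4849, and Tars and Wars2 share stretches of 76 to 154 bases with several unrelated genes. In the longest coding transcripts these lie between bases 2993 and 3161 of 4005 for Tars and between bases 3682 and 3810 of 4410 for Wars2. Iars, Tars and Wars2 were all lower in 4-OHT, and of the 4 members Lars2 alone was higher.

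Cytosolic and mitochondrial enzymes for the same amino acid can be compared within a pair. In 13 amino acids with 1 gene for each compartment, the cytosolic gene had the lower ratio in 9 pairs and the mitochondrial gene in 4 (Mars2, Nars2, Rars2 and Sars2), with 2 pairs within 0.1 of each other (Sars with Sars2, Vars with Vars2). Valine was the amino acid with low ratios in both compartments, at -0.89 and -0.82, and methionine likewise, at -0.77 and -1.05. The widest gaps were those of leucine (2.52 between Lars and Lars2) and cysteine (1.22 between Cars and Cars2). Leaving Lars2 aside, the cytosolic gene was 1.97 to 32.4 times as abundant as its mitochondrial partner in ethanol, with a median of 6.34, and 1.70 to 44.6 times in 4-OHT, with a median of 5.97.

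**Figure D3:**
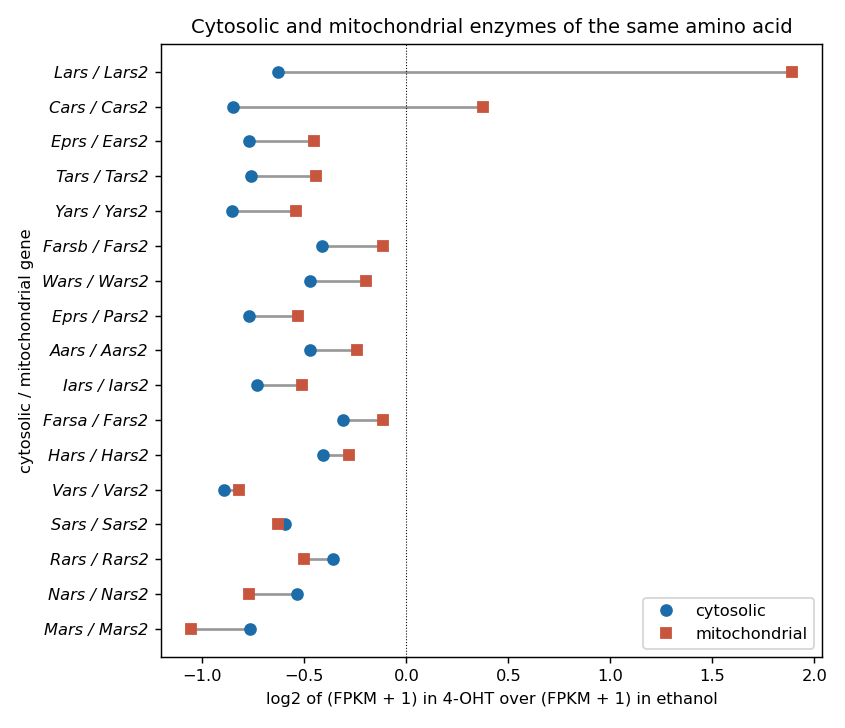
Log2 ratio of the cytosolic gene (circle) and of the mitochondrial gene (square) for the same amino acid, ordered by their difference; Eprs is paired with both Ears2 and Pars2, and Farsa and Farsb both with Fars2. The squares of Cars2 (0.38) and Lars2 (1.89) lie right of 0, and most other pairs lie within 0.32 of each other.

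Glutamine has no mitochondrial synthetase in mammals: its mitochondrial tRNA is first charged with glutamate and then converted by the amidotransferase GatCAB. The 3 subunit genes were lower in 4-OHT, with Pet112l (GatB) at 7.54 and 4.49 FPKM in ethanol and 4-OHT, Gatc at 22.9 and 14.4 FPKM and Qrsl1 (GatA) at 10.7 and 7.57 FPKM. Of 15 compared genes related to synthetases (editing, mitochondrial amidation, formylation and tRNA end processing), 12 were lower, 3 at least 1.5-fold, with a median of -0.40. The shares over all compared rows were 55.1% and 12.8%. Aarsd1, an editing factor for mischarged alanine tRNA, had the lowest ratio, at 30.3 and 18.1 FPKM (-0.71). Trnt1, which adds the terminal CCA to tRNA, stood at 27.6 and 20.6 FPKM.

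Most other genes of the ATF4 response were also lower in 4-OHT. Of 30 compared genes, 25 were lower, 18 at least 1.5-fold and 13 at least 2-fold, with a median of -0.79. Over all compared rows these shares were 55.1%, 12.8% and 2.58%. Without the transporter genes that are counted again below, 20 of 25 were lower, with a median of -0.72, beside -0.75 for the synthetase genes listed as ATF4 targets. Phgdh and Shmt2, enzymes of serine and glycine synthesis, stood at 309 and 143 FPKM and at 277 and 106 FPKM, and Cth, of cysteine synthesis, had the lowest ratio, at 75.5 and 15.2 FPKM (-2.24). Asns, the asparagine synthetase that feeds the Nars reaction, stood at 158 and 68.4 FPKM (-1.19). The transcription factor genes of the list were divided: Cebpb stood at 35.1 and 67.6 FPKM (0.93), Atf3 at 33.4 and 58.0 FPKM and Ddit3 at 22.6 and 32.4 FPKM, whereas Atf5 (43.1 and 27.3 FPKM, -0.64) and Cebpg (20.1 and 16.3 FPKM, -0.28) were lower in 4-OHT. Atf4 itself was at 183 and 153 FPKM (-0.25); its activity is set largely by translation, which these values do not measure. Of the genes of the 4 kinases that trigger ATF4 translation, none differed by 1.5-fold (Eif2ak1 at -0.15, Eif2ak3 at 0.09, Eif2ak4 at 0.22 and Eif2ak2 at 0.23). Atf4, Asns, Atf3, Ddit3, Atf5, Cebpg and Eif2ak4 were named after their values were seen.

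**Figure D4:**
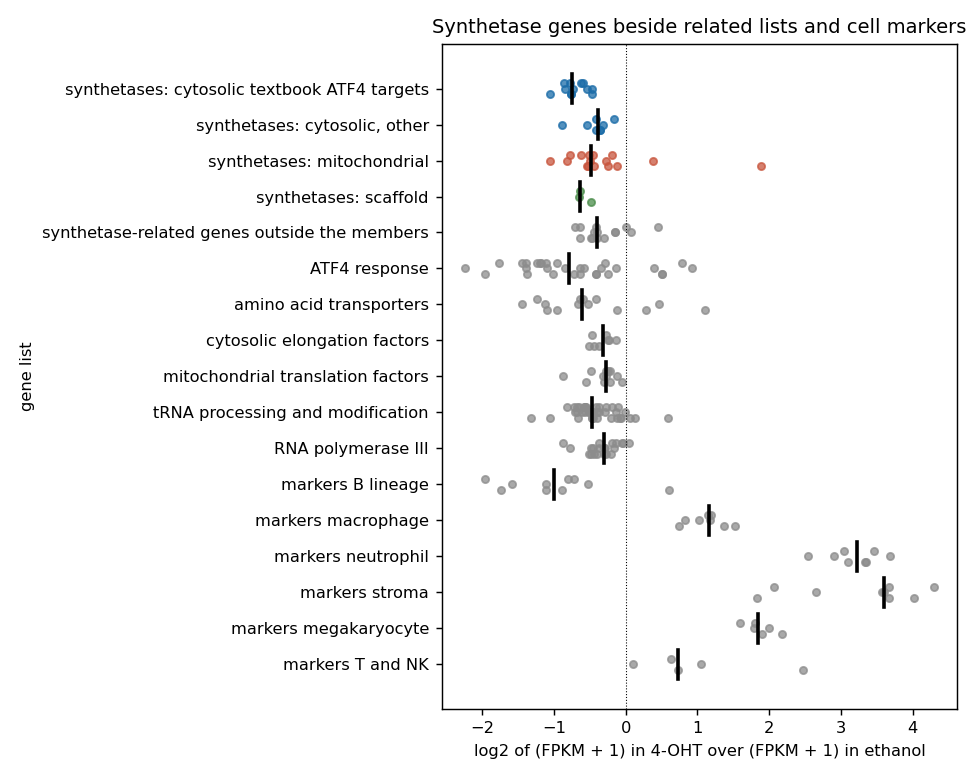
Log2 ratio of each compared gene (points) in the synthetase groups, in related gene lists and in cell type marker lists, with a black bar at each list's median. Synthetase groups centre between -0.75 and -0.38, the ATF4 response at -0.79 and B-lineage markers below these, while markers of other cell types lie above 0.

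Genes that bring amino acids in and use the charged tRNA were also lower, by differing amounts. Of 14 compared amino acid transporter genes, 11 were lower, 8 at least 1.5-fold, with a median of -0.61. Of all compared rows, 55.1% were lower and 12.8% at least 1.5-fold lower. Slc7a5, which imports large neutral amino acids such as leucine, stood at 174 and 63.5 FPKM (-1.44), its partner chain Slc3a2 at 133 and 99.4 FPKM (-0.41), and Slc36a1, a lysosomal exporter, was higher, at 8.30 and 18.9 FPKM (1.10). All 8 compared cytosolic elongation and termination factor genes were lower, none by 1.5-fold, with a median of -0.32. Eef2, the translocase, stood at 1096 and 850.0 FPKM, Eif5a at 854 and 619 FPKM, and Eef1b2, an exchange factor of the complex that receives charged tRNA, at 390.0 and 274 FPKM (-0.51). The highest ratio was that of Eef2k, the kinase that inhibits the translocase (-0.13). Eef1a1, the carrier of charged tRNA, is listed at 0 in both conditions and was not compared.

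All 12 compared mitochondrial translation factor genes were lower, 1 at least 1.5-fold, with a median of -0.27, so the mitochondrial synthetase genes had the lower median. Tufm, the mitochondrial carrier of charged tRNA, stood at 57.5 and 48.2 FPKM, Ptcd3 at 35.3 and 23.8 FPKM, and Guf1 had the lowest ratio, at 10.5 and 5.29 FPKM (-0.88). The release factor gene Mtrf1 was nearly level (-0.06). In tRNA processing and modification, 37 of 40 genes were lower, 10 at least 1.5-fold, with a median of -0.46. Nsun2 and Trmt112, a tRNA methyltransferase and a partner subunit of such enzymes, stood at 76.7 and 55.2 FPKM and at 64.3 and 48.7 FPKM, Pus7, a pseudouridine synthase, at 44.1 and 17.1 FPKM (-1.32), and Tsen34, a subunit of the tRNA splicing endonuclease, was higher, at 12.4 and 19.3 FPKM (0.60). Among genes of RNA polymerase III, which transcribes tRNA genes, and its factors, 20 of 21 were lower, 2 at least 1.5-fold, with a median of -0.30. The share at least 1.5-fold lower was 8.33% for mitochondrial translation factors, 25.0% for tRNA processing and 9.52% for RNA polymerase III. It was 12.8% over all compared rows, of which 55.1% were lower. Maf1, the repressor of this polymerase, was nearly level at 55.7 and 54.1 FPKM, and Gtf3a stood at 63.6 and 36.9 FPKM (-0.77). The subunit gene Polr3f had the highest ratio, at 4.30 and 4.45 FPKM (0.04). Transfer RNAs themselves were not analysed here.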

How the data were processed

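Messenger RNA libraries (3 per condition) were summarised by the authors as 1 FPKM value per gene and condition. The authors' deposited table also gives log2 fold changes, which equal the log2 of the 4-OHT over the ethanol value with no pseudocount in all 15756 rows above 0 in both (within 0.01). Per the submitters' processing notes, CASAVA, TopHat2 2.0.9, Cufflinks 2.1.1 and mm9 were used. How libraries were pooled or scaled was not given in the sources used here, and read depth is unknown. The listed FPKM summed to 346977 and 356802.

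The filter kept 10856 of 21307 rows: both values above 0 and their mean 1 FPKM or more. Ratios used a pseudocount of 1 FPKM. The planned limma fit was not run because libraries have no values of their own. Members, groups and the 26 gene lists were chosen with earlier results of these data known. Named genes were all members, Prmt5 and Myc, and, from each list outside the members, the 2 most abundant compared genes and those with the highest and lowest ratio (markers: the 2 most abundant, for which summed levels are given instead). Others were named after their values were seen (amidotransferase and overlapping genes, and those stated). Some named items are not reported here. 1 was added to locus starts: read from 0, 6341 locus lengths equal those of RefSeq genes (GRCm38.p6), and 437 if read from 1.

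Transcripts of GENCODE M21 (GRCm38) were searched with blastn 2.17.0. Tools were matplotlib 3.10.9, pandas 2.3.3, numpy 2.4.6 and Python 3.11.15, and the ratio was tested on simulated data. Alternatives were pseudocounts of 0.1 and 0.5, no filter, a mean of at least 5 FPKM, median-of-ratios scaling, quantile normalization, the authors' fold changes, no merged rows and, chosen after seeing the data, no Lars2.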

Additional observations from a re-analysis of the deposited data

How the results depend on the processing

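No member changed direction under median-of-ratios scaling or quantile normalization. The other alternatives could not change a direction, because they keep which of a member's values is the higher. Of 39 ratios, 6 moved by more than 0.1 in at least 1 of the 9 alternatives. The cytosolic median ran from -0.59 to -0.49, the mitochondrial from -0.54 to -0.41 and the scaffold from -0.67 to -0.57. The ratio ran from -1.06 to -0.97 for Gars, from -1.20 to -0.99 for Mars2, from 0.35 to 0.44 for Cars2 and from 1.84 to 1.97 for Lars2. Under median-of-ratios scaling 0 members were at least 2-fold lower, where Gars and Mars2 stood just inside that fold before. The number at least 1.5-fold lower ran from 11 to 18 around 16. With a mean of at least 5 FPKM, 35 members were compared and the median of mitochondrial class II genes was -0.28 (-0.44 before), with fewer genes in it. Without Lars2, 1 member was higher. No paired analysis was possible because the deposited table holds no values of single libraries; for the same reason leaving out each library and limma with a trend were not run. Low FPKM values carry the least precision, which cannot be stated without counts.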
